A study of Mus musculus with 8 samples.

Results

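The nuclei described here are the Lamp5 inhibitory nuclei of the mouse hippocampus, the class to which neurogliaform-type interneurons belong. They were picked out of single-nucleus RNA counts by a fixed rule on unique molecular identifiers (UMIs, each standing for 1 captured RNA molecule). A nucleus counted as inhibitory with at least 3 UMIs of Gad1 and Gad2 together, provided that these exceeded the UMIs of the excitatory transporters Slc17a7 and Slc17a6. An inhibitory nucleus was a member with at least 2 UMIs of Lamp5, at most 2 of Sst, at most 1 of Vip and at most 1 of Pvalb. The rule found 264 members among 1678 inhibitory nuclei and 32041 nuclei in all.

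The labels give the strain as C57BL/6 and the study's methods as C57BL/6N, and each of the 8 libraries held the hippocampal nuclei of 1 mouse. The 3 WT mice (WT 1 to 3) and the 3 GKO mice (GKO 1 to 3) were 7 mo old. The J20;WT group and the J20;GKO group had 1 mouse each, 6 mo old. GKO mice lack part of Gsap, the gene of the γ-secretase activating protein, in every tissue, since a floxed allele was recombined by CMV-Cre. J20 mice carry human APP with the Swedish and Indiana mutations under the PDGFB promoter, so the J20;WT and J20;GKO mice differ from the others by a transgene as well as by age. The members numbered 34, 48 and 22 in the WT mice, 25, 37 and 48 in the GKO mice, 29 in the J20;WT mouse and 21 in the J20;GKO mouse.

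Neurogliaform cells are small GABAergic interneurons whose dense axons release GABA into the surrounding tissue rather than onto single synapses, so that they act through slow GABAA and GABAB receptor currents. In the hippocampus they are joined by the closely related ivy cells. Interneurons of this family arise from both the caudal and the medial ganglionic eminence of the embryonic brain. Adarb2 and Prox1 are usual marks of the caudal lineage, and Lhx6 is a usual mark of the medial lineage.

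Lamp5 encodes a brain-specific lysosome-associated membrane protein and lies at chr2:136052239-136069917 (mm10, plus strand). Npy (chr6:49822710-49829507) encodes neuropeptide Y, Hapln1 (chr13:89539796-89611652) a link protein that ties hyaluronan to proteoglycans in the extracellular matrix, and Adarb2 (chr13:8202866-8768747) a brain-specific relative of the RNA-editing deaminases.

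The kept nuclei of a library held 21020159 to 43310978 UMIs in total. Gsap was found at 19.8 to 23.0 CPM (UMIs of a gene for every 1000000 UMIs) in the kept nuclei of every library, the GKO ones included. Counts of this kind do not show which exons a transcript carries, so they do not check the deletion. By the dates that the deposited data carry, WT 1 and GKO 1 share one date, J20;WT has another, and the other 5 mice share the middle one. Xist was high in WT 1, GKO 1 and J20;GKO (2135 to 2410 CPM) and at most 3.00 CPM in the other libraries. Y-linked genes showed the reverse, with 2.18 to 2.75 CPM in the former and 324 to 454 CPM in the latter. Among the WT and GKO mice, date and Xist thus made the same split, and a date term cannot tell them apart. Ttr had a UMI in 68.8% to 85.4% of excitatory nuclei of WT 1, GKO 1 and J20;WT, in 27.7% in GKO 3 and in 0.876% to 3.08% in the others. Library pairs shared 2 to 21 barcodes, and 0 of these were shared by members. A doublet caller gave usable results in 5 libraries, where it marked 14 of 176 members.

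How sharply the rule divided the inhibitory nuclei can be read from the nuclei at its limit. Among the members, 82 had exactly 2 Lamp5 UMIs, 63 had 3, and 119 had 4 or more, up to 12. A further 96 inhibitory nuclei within the limits on Sst, Vip and Pvalb had a single Lamp5 UMI. Hapln1 stood at 156 CPM in the nuclei with 1 Lamp5 UMI and at 265 CPM in those with 2, against 26.9 CPM in those with 0. Npy stood at 68.2, 197 and 74.9 CPM in the same order. The nuclei just outside the limit were thus above the nuclei without Lamp5 in Hapln1 but not in Npy. Only 11 of 275 nuclei with enough Lamp5 were left out by the other limits, 10 of them for Sst and 1 for Pvalb. In excitatory nuclei, 11.9% to 18.5% had a Lamp5 UMI and 2.62% to 6.15% had at least 2, while 1.90% to 4.59% had a Hapln1 UMI. Whether these Lamp5 UMIs are of the nuclei's own RNA was not tested.

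The members were then described by genes outside the rule. Inhibitory nuclei were clustered on 2000 variable genes without the 8 genes of the rule, which gave 23 clusters. Xist, Tsix, Y-linked genes, Ttr and the mitochondrially encoded genes were left out of the clustering too. Members made up most of 3 clusters, here numbered 13, 3 and 17. These held 191 members, or 72.3% of them, among 276 nuclei. Of the 85 other nuclei there, 47 had 1 Lamp5 UMI and 36 had 0. The remaining 73 members were spread over 10 clusters. A coarser clustering with 14 clusters also had 3 clusters with mostly members, which held 191 members as well.

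**Figure D1:**
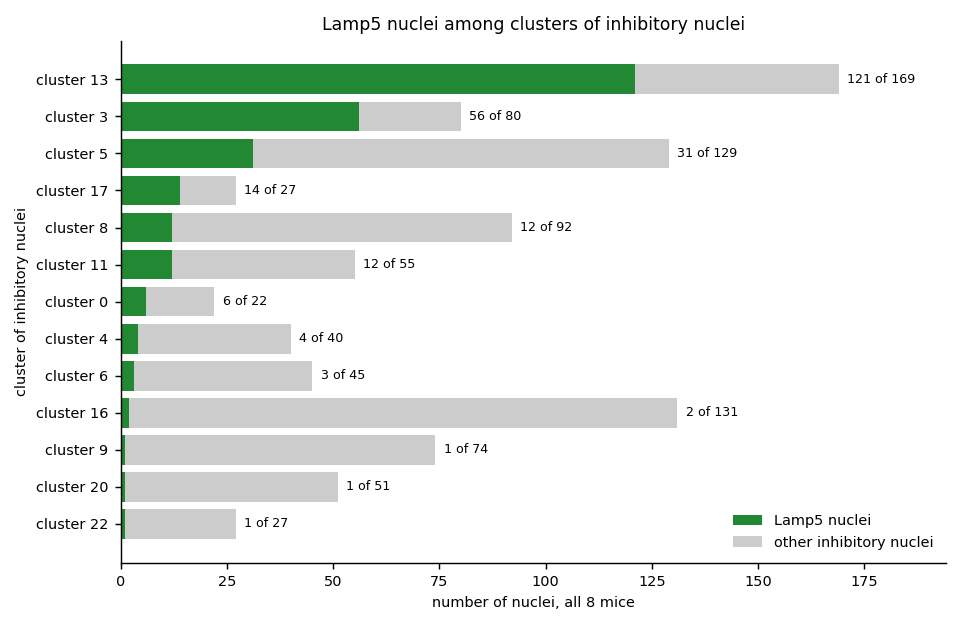
Number of nuclei (x axis) in each of the 13 clusters of inhibitory nuclei that hold members (y axis), split into members and other nuclei. Clusters 13, 3 and 17 are mostly members, with 121 of 169, 56 of 80 and 14 of 27 nuclei, and cluster 5 holds 31 members among 129 nuclei.

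The members outside these 3 clusters are a mixed group. Cluster 5, with 31 members, was led by genes of excitatory neurons such as Slc17a7 and Ntng2. Its members had a median of 20882 UMIs against 12583 over all members, and 25 of its 70 nuclei in the 5 libraries with usable calls (35.7%) were called doublets. Cluster 11, with 12 members, was led by oligodendrocyte genes such as Mog and Mag, and 18 of its 27 nuclei in those libraries (66.7%) were called doublets. Cluster 8, also with 12 members, was led by Cpa6, Col6a3 and Zic1, and its nuclei had 0 Hapln1 UMIs. In all, 8 clusters in which at least 10% of the nuclei of these libraries were called doublets held 54 members (20.5%), whose median of 19975.5 UMIs exceeded the 11475.5 UMIs of the other 210 members. Calls of each comparison, and counts of some of the lists, are therefore also given without these clusters, but the shares are not. This alternative was chosen after seeing the data.

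Transcripts of other cell types were measured in the members too. Summed CPM of 8 oligodendrocyte markers ranged from 154 to 1045.5 across the mice, with a median of 313 against 324 in the other inhibitory nuclei. For 8 excitatory markers the range was 313 to 713, with a median of 511 against 516. For 8 astrocyte markers it was 97.7 to 632 (median 174 against 196), and for 7 microglial markers 98.8 to 283 (median 140 against 126). These medians lay close to those of the other inhibitory nuclei. For 7 markers of oligodendrocyte precursors it was 140 to 235, with a median of 173 against 65.1, and Vcan, a matrix proteoglycan, was the list's only gene that passed the filter on low counts. For 7 endothelial and mural markers it was 26.3 to 79.0 (median 52.9 against 55.8), with UMIs of all but Cldn5. For 4 Cajal-Retzius markers it was 0 to 10.503 (median 1.11 against 5.15), with Lhx1 and Lhx5 at 0 and the other two detected. The part of such transcripts in the results was not tested beyond the counts without doublet-rich clusters.

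To see what sets the members apart, the UMIs of the members and of the other inhibitory nuclei were summed in each mouse, and the 8 pairs of sums entered a quasi-likelihood fit in edgeR in which the mouse was a term. Calls required both a Benjamini-Hochberg adjusted p below 0.05 and a change larger than 0.3 on the log2 scale. CPM are taken within each such sum, and a higher value can come from more nuclei with the gene or from more RNA per nucleus. Of 9817 genes tested, 791 (8.06%) were higher and 810 (8.25%) were lower in the members. The limits of the rule on Sst, Vip and Pvalb placed the nuclei rich in these peptides and calcium-binding proteins in the other group, so lower values of genes that go with them are a description.

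Most of the genes usually linked to neurogliaform-type cells were higher. The members and this list were chosen with earlier results of these data known. The values therefore describe the members and are no independent check of the label. Lamp5 itself, which chose the members, had 152, 290 and 389 CPM as lowest, median and highest values over the mice. Of 17 on the list, 13 were tested, 11 were higher and 1 was lower, with a median log2 fold change of 1.91 against −0.01 over all genes tested. Without the doublet-rich clusters, 10 were higher and 1 lower. Hapln1 ranged from 162 to 463 CPM across the 8 mice (median 275) against 21.7 to 47.6 (median 29.0) in the other inhibitory nuclei. Every mouse had more in its members, with no overlap between the groups, and the log2 fold change was 3.21 ± 0.11 (SE; edgeR adjusted p = 5.95e-17), or 9.26-fold. Hapln1 UMIs were found in 76.9% of members and in 18.1% of other inhibitory nuclei. With each nucleus thinned to 5000 UMIs, which left 259 members and 1352 other nuclei, the shares were 63.7% and 10.1%.

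Id2, an inhibitor of basic helix-loop-helix transcription factors, had 70.0, 129 and 193 CPM as lowest, median and highest values in members against 11.2, 20.5 and 31.2 (6.43-fold). The receptor tyrosine kinase Kit had 62.5, 119 and 217 CPM against 12.1, 22.9 and 47.7. Both were separated from the other nuclei in every mouse. Egfr, the receptor of epidermal growth factor, had 132, 225 and 251 CPM against 23.8, 36.9 and 71.3. Sv2c, a synaptic vesicle protein, had 96.5, 114 and 233 CPM against 5.96, 27.3 and 61.1. Their log2 fold changes lay between 2.35 and 2.69, with edgeR adjusted p values from 2.84e-16 for Id2 to 0.00361 for Sv2c.

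Nos1, the neuronal nitric oxide synthase that neurogliaform and ivy cells are known for, rose by 1.91 ± 0.16 on the log2 scale, from a median of 22.9 CPM to one of 101 CPM (edgeR adjusted p = 5.67e-08). It had a UMI in 61.0% of members. Nos1 was the only one of 10 tested genes of nitric oxide and cyclic GMP signalling that was higher. The guanylate cyclase subunits Gucy1a1 and Gucy1b1, which form the receptor for nitric oxide, and the phosphodiesterases Pde5a, Pde1c and Pde9a were lower. The median of Pde1c was 18.0 CPM in members against 64.0 CPM. Ndnf, a secreted neuron-derived factor, and Reln, the matrix glycoprotein reelin, were higher by 1.75 ± 0.11 and 1.42 ± 0.09 on the log2 scale. Both genes are also known from Cajal-Retzius cells, and the summed level of 4 other markers of those cells is given above. Eya4, a transcriptional coactivator, was called at 1.33 ± 0.30 but not among nuclei of 5000 to 20000 UMIs (edgeR adjusted p = 0.172), in the 6 WT and GKO mice (0.0767) or without the doublet-rich clusters (0.0606).

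Npy did not pass the test. Its lowest, median and highest values were 36.8, 346 and 646 CPM in members against 22.4, 155 and 446 CPM. It was higher in members in 7 of 8 mice and had a UMI in 63.3% of members against 24.8%, but the values overlapped and the log2 fold change of 0.96 ± 0.32 had an edgeR adjusted p of 0.0877. Npy UMIs were also present in 36.3% of excitatory nuclei of the J20;GKO library and 6.78% of those of the J20;WT library, against 1.12% to 4.31% in the other libraries.

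Adarb2, although listed as a marker of these cells, was lower in members than in the rest. It ranged from 1524 to 2738 CPM (median 2246) against 2089 to 3648 CPM (median 3145) and was lower in 8 of 8 mice (log2 fold change −0.46 ± 0.07, edgeR adjusted p = 8.94e-06). More members had a UMI of it, 77.3% against 51.6%. Among nuclei of 5000 to 20000 UMIs the log2 fold change was only −0.09, with an edgeR adjusted p of 0.846. This range also changes which nuclei each class holds, and the part of depth itself was not tested. Cplx3, a complexin of the release machinery, was under the filter on low counts at a median of 9.85 CPM against 0.589 CPM.

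**Figure D2:**
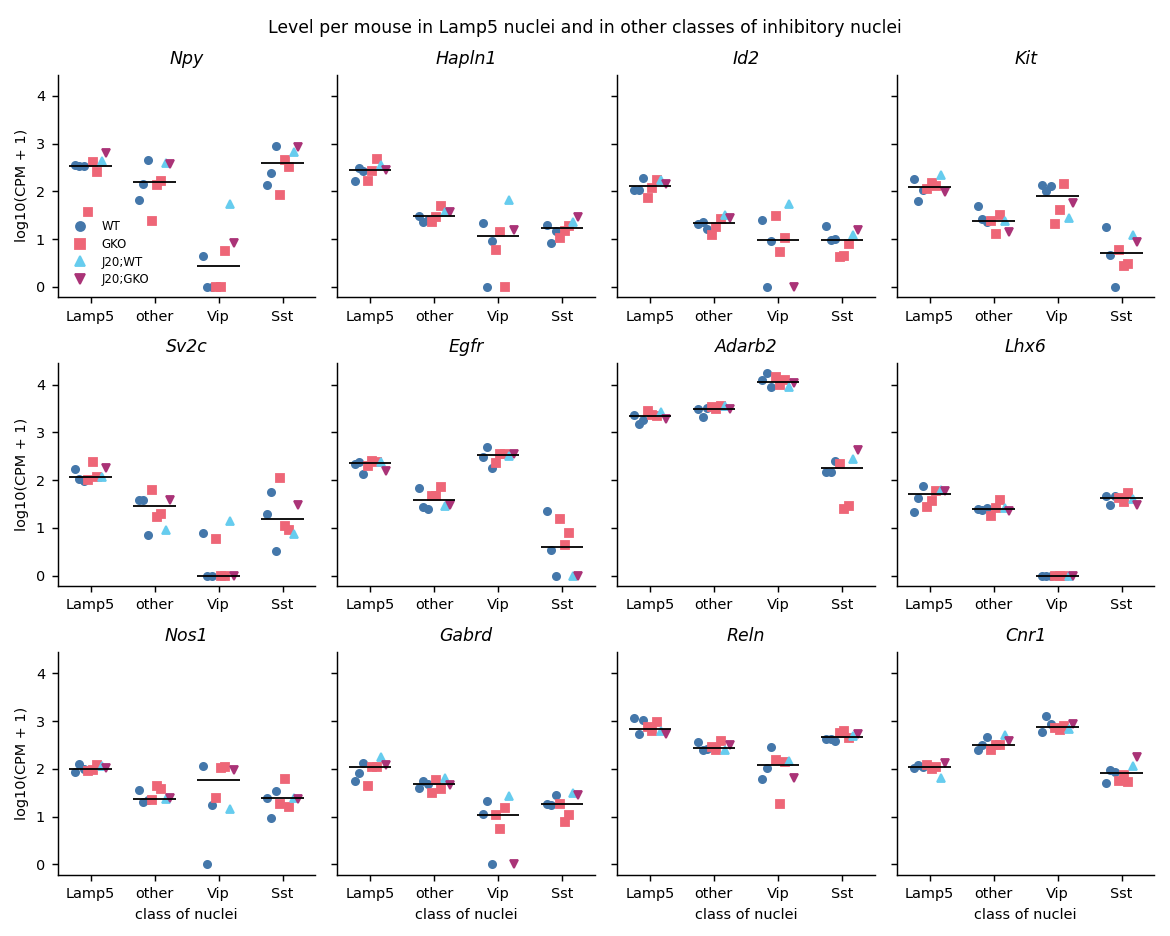
Log10 of CPM plus 1 (y axis) of 12 genes in Lamp5 members, other inhibitory nuclei, Vip nuclei and Sst nuclei (x axis), with 1 point for each of the 8 mice and bars at the medians. Hapln1 lies at 162 to 463 CPM in members and at most 65.8 CPM in the other classes, while Npy in Sst nuclei and Adarb2 in Vip nuclei reach or pass the level in members.

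Marks of the embryonic lineages were mixed. Of 8 tested genes of the caudal lineage, only Prox1 was higher (0.73 ± 0.15 on the log2 scale). Adarb2, Nr2f2, Npas1, Npas3 and Htr3a were lower. The median of Npas3 fell from 1191 to 303 CPM, and that of Npas1 from 99.4 to 9.53 CPM. Of 7 tested genes of the medial lineage, Lhx6, Maf and Nxph1 were higher, and Sox6 and Satb1 were lower. Lhx6 had 20.5, 49.2 and 74.0 CPM as lowest, median and highest values against 16.3, 24.0 and 36.6 CPM (log2 fold change 0.87 ± 0.17, edgeR adjusted p = 0.000216), with overlapping values. Satb1, which is needed for Sst cells to mature, had a median of 6.80 CPM against 205 CPM. Nkx2-1, the factor upstream of Lhx6, was under the filter at 1.75 to 16.1 CPM against 0 to 3.27 CPM.

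The genes that mark other interneuron classes were mostly lower. Of 5 tested genes of the Sst list, Crhbp, Elfn1, Tac1 and Grin3a were lower and Reln was higher. Of 4 tested genes of the list of Cck and Cnr1 cells, Cnr1, Chrm3 and Rgs12 were lower. The cannabinoid receptor Cnr1 had 64.9, 107 and 133 CPM in members against 243, 318 and 505 CPM. Cck itself was not called (−0.33 ± 0.16, edgeR adjusted p = 0.214) and had a UMI in 72.3% of members. Crh and Slc17a8 were found in 0 of 264 members, which allows a share of nuclei with a UMI of up to 1.14%. Stk32a, a kinase gene with 3 UMIs in the members, was 74.2-fold higher in the other nuclei (95% counting interval 25.3 to 361). Syt6, a synaptotagmin with 1 UMI in the members, was 163-fold higher (29.1 to 6434). For both genes the interval covers counting error alone.

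Genes of GABA signalling tended to be higher. Of 14 GABA receptor subunit genes tested, 8 were higher, among them Gabra4, Gabra5, Gabrb2, Gabrg3, Gabrd and Gabbr2, and only Gabra3 was lower. The counts were the same without the doublet-rich clusters. Gabrg3 had 2493, 2850.5 and 3753 CPM in members as lowest, median and highest values against 1009.5, 1265 and 1401 CPM (log2 fold change 1.26 ± 0.07). Gabbr2, a subunit of the GABAB receptor, had 688 to 781 CPM against 258 to 391.5 CPM, and Gabrb2 one of 693 CPM against 301 CPM. Gabrd encodes the δ subunit of extrasynaptic GABAA receptors and had a median near 109 CPM. The transporters Slc6a11, which takes up GABA, and Slc38a1, which carries glutamine, were higher too, Slc6a11 with 25.7, 31.4 and 61.2 CPM against 13.6, 19.4 and 29.8 CPM and overlapping values. The call of Slc38a1 was lost in the 6 WT and GKO mice alone (0.26, edgeR adjusted p = 0.0602) and without the filter on low counts (0.25, 0.0552). It was also lost without GKO 1 (0.29) or J20;GKO (0.29), where the change was below 0.3.

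Glutamate receptors went both ways. Grin2a, a subunit of NMDA receptors, had a median of 2655 CPM against 844 CPM, 3.42-fold higher (edgeR adjusted p = 1.23e-16). Grin2d, Grik1 and Grik2 were also higher, whereas Gria2, Gria3, Grin3a and Grik3 were among the 5 of 16 tested that were lower. Without the doublet-rich clusters, 4 of 16 were higher and 8 were lower. Of 6 metabotropic receptor genes tested, 0 were higher and 4 were lower, Grm8, Grm7 and Grm3 among them. The medians of Grm8 were 47.6 and 296 CPM, but its highest value in members, 222 CPM, exceeded the lowest one in the rest, 162 CPM.

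Further genes of the matrix, channels and receptors went both ways. Hcrtr2, the orexin receptor 2, had 98.0, 151 and 227 CPM in members against 7.37, 19.3 and 30.9 CPM (7.94-fold). Cacna2d1, an auxiliary subunit of calcium channels, was 8.47-fold higher at a median of 1751.5 CPM. Vcan was 6.75-fold higher with 109, 168 and 226 CPM against 8.93, 24.3 and 41.9 CPM, and the phosphodiesterase Pde11a was 6.64-fold higher. For these 4 genes the groups did not overlap. The adrenergic receptor Adra1a (2.03 ± 0.13 on the log2 scale), the substance P receptor Tacr1 (2.31 ± 0.25) and Pnoc, the precursor of nociceptin (1.37 ± 0.10), were higher as well. The peptide genes Tac1 and Cort, the receptor genes Oprd1 and Npy1r and the channel subunit gene Cacna2d3 were lower. So was the matrix gene Bcan, with 75 UMIs in members and 1298 in the other inhibitory nuclei.

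Among the amyloid precursor family and the secretases, which the study addresses through Gsap, 2 of 15 tested genes were higher and 0 lower, beside 8.06% and 8.25% of all genes, so that the list is not set apart by its count. Adam10, an α-secretase, had 149, 203 and 235 CPM in members against 87.8, 112 and 126 CPM (log2 fold change 0.86 ± 0.09), and Aplp2, a homologue of App, rose by 0.57 ± 0.07. Of 12 tested mitochondrially encoded genes, 0 were called in either direction.

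The members were next set against the Vip nuclei, 128 in number and a class of the caudal lineage, and against 404 Sst nuclei, a class of the medial lineage. Both comparisons use the same sums for the members and are not independent. Against Vip nuclei 493 of 5334 genes tested (9.24%) were higher and 473 (8.87%) were lower. Against Sst nuclei 790 of 8198 (9.64%) were higher and 785 (9.58%) were lower. A mouse gave only 6 to 27 Vip nuclei, against 28 to 80 Sst nuclei.

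Npy and Adarb2 placed the members differently beside these classes. In Vip nuclei Npy had 0, 1.74 and 52.6 CPM as lowest, median and highest values, 5.81 ± 0.33 below the members on the log2 scale (edgeR adjusted p = 8.99e-13). In Sst nuclei it had 83.6, 390 and 889 CPM, and the difference from members of −0.17 ± 0.31 was not called (edgeR adjusted p = 0.792). Adarb2 showed the opposite order. It reached 8739, 11598 and 17139 CPM in Vip nuclei, 5.45-fold above the members. In Sst nuclei it had 23.7, 181 and 420 CPM, 14.5-fold below the members. The members thus overlapped the Sst nuclei in Npy, and in Adarb2 they lay between the classes without overlap.

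Hapln1 was above both classes. It had 0, 10.8 and 65.8 CPM in Vip nuclei and 7.17, 15.7 and 28.4 CPM in Sst nuclei, with log2 fold changes of 4.20 ± 0.33 and 4.13 ± 0.18. Id2, Ndnf and Fgf13, a modulator of sodium channels, were called higher against each class too. Egfr and Kit were not, since Egfr was slightly lower in members than in Vip nuclei (−0.61 ± 0.13, edgeR adjusted p = 0.000695) and Kit was not called against them (0.68 ± 0.33, edgeR adjusted p = 0.203). Against Sst nuclei Egfr was 30.7-fold and Kit 20.4-fold higher. Nos1 was higher than in Sst nuclei (2.18 ± 0.28), while against Vip nuclei its log2 fold change of 0.49 ± 0.35 was not called (edgeR adjusted p = 0.422). Sv2c had a log2 fold change of 5.42 ± 0.36 against Vip nuclei. Against Sst nuclei it was called at 2.33 ± 0.57 (edgeR adjusted p = 0.0245), but when WT 1, GKO 2, GKO 3, J20;WT or J20;GKO was left out the adjusted p was 0.0506 to 0.0695, and in the 6 WT and GKO mice it was 0.12.

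The lineage lists differed by comparison class. Against Vip nuclei, 7 of 7 tested caudal genes were lower, Prox1 included (−1.53 ± 0.15), and Npas3 was 8.71-fold lower. The weakest, Nr2f1 (edgeR adjusted p = 0.0436), lost its call without any 1 of WT 3, GKO 3, J20;WT and J20;GKO (adjusted p = 0.0679 to 0.227). Lhx6 was found in 0 of 128 Vip nuclei, which allows up to 2.34% of nuclei with a UMI, and in 36.0% of members. Against Sst nuclei, Prox1 was 4.27-fold higher in members. Lhx6, with 28.7, 40.7 and 53.6 CPM in Sst nuclei, was not called (0.18 ± 0.20, edgeR adjusted p = 0.614), and neither was Nxph1 (0.02 ± 0.09, edgeR adjusted p = 0.941). Sox6 and Satb1 were 8.37-fold and 27.0-fold lower. Among medial genes the members thus overlapped the Sst nuclei in Lhx6 and Nxph1 and were apart from them in Sox6 and Satb1.

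Many GABA receptor genes were higher in both comparisons, with 7 of 13 tested higher against Vip nuclei and 8 of 14 higher against Sst nuclei, and only Gabra3 lower. Without the doublet-rich clusters, 5 of 10 were higher against Vip nuclei and 8 of 13 against Sst nuclei, with 1 lower in each. Gabrd had 42.0, 109 and 181 CPM in members, 0, 10.0 and 26.3 CPM in Vip nuclei and 6.78, 17.4 and 30.8 CPM in Sst nuclei. It had a UMI in 59.5%, 7.81% and 14.6% of the nuclei. Its log2 fold changes of 3.27 ± 0.33 and 2.46 ± 0.20 were called, and the members overlapped neither class. Metabotropic glutamate receptor genes were lower for 5 of 5 tested against Sst nuclei and for 3 of 5 against Vip nuclei, where Grm5 was higher.

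The other genes with steep differences from Vip nuclei were Mctp2, a membrane protein with C2 domains, and Pde11a, Crispld1 and the growth factor Fgf10, all higher in members. Mctp2 had 569 UMIs in members and 2 in Vip nuclei, which makes it 97.9-fold higher (95% counting interval 27.0 to 810.5). Tac2, the neurokinin B precursor, had 2 UMIs in members and 384 in Vip nuclei, 558-fold higher in the latter (153 to 4623). Synpr, Wnt5b, Sema5b and Plpp4 were lower in members, with log2 fold changes of −4.41 to −5.17. Against Sst nuclei the steepest higher genes were Pde11a, Egfr, Mctp2, Frem1, Sema3c and Kit, and the lowest were Stk32a, Crhbp, Rbp4, Elfn1 and Satb1. Rbp4, a retinol carrier, had a median of 3.31 CPM in members and 147 CPM in Sst nuclei. Without the doublet-rich clusters 721 of the 966 calls against Vip nuclei (74.6%), 1250 of 1575 against Sst nuclei (79.4%) and 1316 of 1601 against all other inhibitory nuclei (82.2%) were kept.

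The members were not uniform in the lineage genes. Adarb2 had a split distribution over single nuclei, with 93 members at 0 to 2 UMIs, 20 at 3 to 7 and 151 at 8 or more, up to 317. Members with at least 3 Adarb2 and at most 1 Lhx6 UMIs were called Adarb2 members (152, or 57.6%), and those with at least 2 Lhx6 and at most 2 Adarb2 UMIs were called Lhx6 members (23, or 8.71%). Another 19 members were high in both genes and 70 in neither. Lhx6 counts were low, so a member with few UMIs of it may fall in the last group. The median depths were 12475 UMIs in Adarb2 members, 13248 in Lhx6 members and 11306.5 in those with neither.

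**Figure D3:**
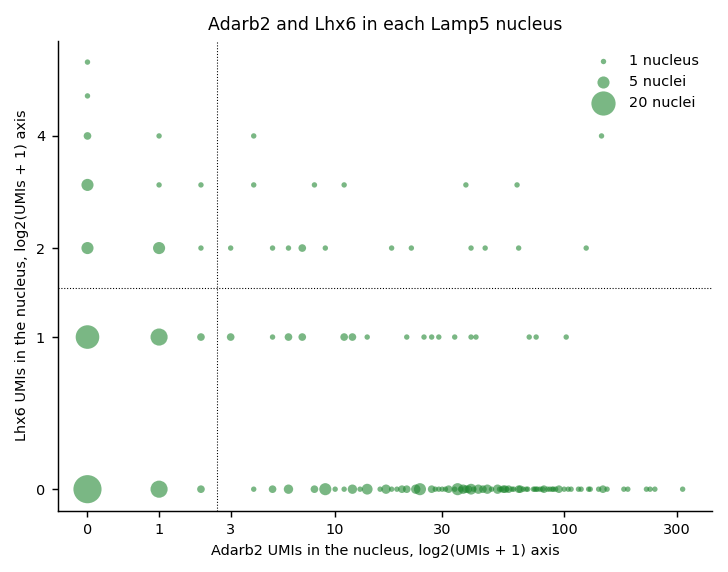
UMIs of Adarb2 (x axis) and Lhx6 (y axis) in the 264 member nuclei, both as log2 of UMIs plus 1, with point area proportional to the number of nuclei and dotted lines at the limits of the subsets. Adarb2 splits into 93 nuclei at 0 to 2 UMIs and 151 at 8 or more, while 23 nuclei have at least 2 Lhx6 and at most 2 Adarb2 UMIs.

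The subsets were compared in the 4 mice with at least 3 nuclei in each, namely WT 2, GKO 3, J20;WT and J20;GKO, again with the mouse as a term. Genotypes are therefore mixed here, and the Lhx6 sums rest on 3 to 8 nuclei a mouse. Of 2084 genes tested, 36 (1.73%) were higher and 22 (1.06%) lower in Adarb2 members. Without the J20;WT mouse 36 genes were called in all, against 58.

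Kit and Ndnf were nearly absent from the Lhx6 members. Kit had 130, 229, 324 and 268 CPM in the Adarb2 members of these mice, in the order above, and 0, 9.53, 26.0 and 0 CPM in the Lhx6 members. Ndnf had 205, 282, 209 and 163 CPM against 0, 0, 26.0 and 17.5 CPM. Each gene had 2 UMIs in all Lhx6 sums, and the ratios were 31.1 (95% counting interval 8.50 to 258) for Kit and 31.2 (8.54 to 259.5) for Ndnf, with edgeR adjusted p values of 3.19e-05 and 9.62e-05. Sv2c had 126, 163, 141 and 277 CPM against 40.2, 28.6, 52.0 and 52.6 CPM (4.01-fold, edgeR adjusted p = 0.00863), though DESeq2 gave it an adjusted p of 0.083. These were the only 3 of 10 tested genes of the neurogliaform list that were called between the subsets.

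Ntng1, a netrin family protein that guides axons, had 594, 767, 606 and 1091 CPM in Adarb2 members and 1 UMI in the Lhx6 members, a 195-fold difference with a counting interval of 34.9 to 7721. Chrm2, the muscarinic receptor M2, had 355, 244, 636 and 287 CPM and likewise 1 UMI, and Car10 had 302 UMIs against 3. Only 35.5% of Adarb2 members had an Ntng1 UMI and 11.8% a Chrm2 UMI, so these sums rest on a minority of nuclei. In Adarb2 members Kcnip4, Kcnip1, Nos1ap, Gria3, Cntnap2 and Nrxn3 were higher as well, but each lost its call without at least 1 of the 4 mice.

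Lhx6 members were higher in Col25a1, a transmembrane collagen, and Tenm1, a teneurin of cell adhesion. Col25a1 had 580, 661, 184 and 411.5 CPM in Adarb2 members and 2760.2, 2315, 962 and 1754 CPM in Lhx6 members (log2 fold change −2.18 ± 0.24, edgeR adjusted p = 9.16e-06). Tenm1 had 1088, 943, 862 and 612.5 CPM against 2090.3, 2106, 2548 and 2491 CPM (−1.47 ± 0.25). In each of the 4 mice the Lhx6 members were above the Adarb2 members in both genes. Plxdc2, Cemip and Tmem158 had the same direction and were called, and Unc5c and Gria1 too, though the last pair lost the call without any 1 of the mice.

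For several defining genes the subsets could not be told apart with so few Lhx6 nuclei. Npy had 529, 332, 512 and 1311 CPM in Adarb2 members against 509, 114, 208 and 246 CPM (1.18 ± 0.33, edgeR adjusted p = 0.0731). The log2 fold change was −0.97 ± 0.35 for Id2 (edgeR adjusted p = 0.217), −1.06 ± 0.39 for Nos1 (0.235) and −0.49 ± 0.24 for Hapln1 (0.493). The doublet-rich clusters held 34 Adarb2 members and 6 of the 23 Lhx6 members. Without these clusters only 3 mice had enough nuclei, 101 genes were called, and 46 of the 58 calls (79.3%) were kept.

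The 3 clusters with mostly members divide these nuclei by the variable genes used for the clustering. Since the clusters were built from these counts, their levels are a description without a test. Cluster 13 held 121 members, of them 45 Adarb2 members, 16 Lhx6 members, 16 high in both and 44 in neither. Its members had Hapln1 at 465 CPM, Vcan at 294 CPM, Mctp2 at 277 CPM, Id2 at 213 CPM and Col25a1 at 1814 CPM. Nos1 stood at 181 CPM, with a UMI in 83.5% of its members, and Lhx6 at 77.8 CPM, with a UMI in 60.3%. Kit was at 0 in its 121 members, which allows up to 2.48% with a UMI, and Ndnf was at 3.79 CPM. It was the group with nitric oxide synthase and Lhx6.

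Cluster 3 held 56 members, all of them Adarb2 members. Kit stood at 647 CPM, Ndnf at 609 CPM, Reln at 2921 CPM, Sv2c at 423 CPM, Egfr at 582 CPM and Npy at 949 CPM. Adarb2 was at 5795 CPM against 1270.5 CPM in cluster 13. Hapln1 was present at 249 CPM, but Lhx6 and Tacr1 were at 0, which allows up to 5.36% of nuclei with a UMI, and Nos1 was at 37.6 CPM. It was the group with Kit, Ndnf and reelin. Its Npy level differed strongly among the mice, from 108 CPM in GKO 1 and 123 CPM in GKO 3 to 1669 CPM in J20;GKO.

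Cluster 17 held 14 members, again all Adarb2 members, and none came from WT 1 or J20;WT. It had Ntng1 at 4156 CPM, Chrm2 at 1949 CPM, Car10 at 1652 CPM and Oprd1, the δ opioid receptor, at 283 CPM, each of the first 3 with UMIs in every one of the 14 nuclei. Adarb2 was at 5243 CPM and Npy at 132 CPM. Hapln1 had 2 UMIs there and Reln 1, while Kit, Ndnf, Sv2c, Nos1, Lhx6 and Egfr were at 0, a count that allows up to 21.4% of these few nuclei. Its levels of these genes go against the neurogliaform label, which is not used for it.

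**Figure D4:**
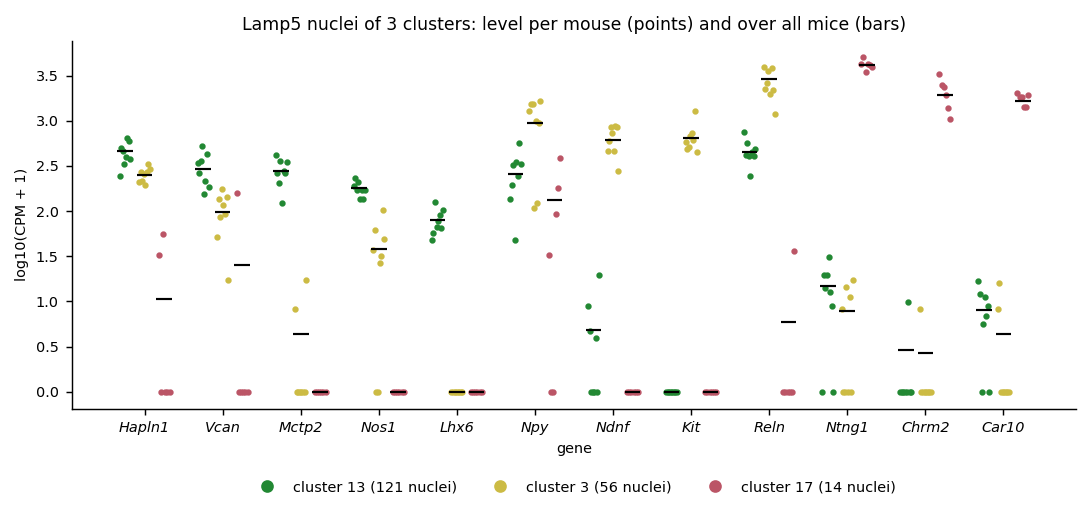
Log10 of CPM plus 1 (y axis) of 12 genes (x axis) in the members of clusters 13, 3 and 17 (colours). Points are the mice that have members there, and bars mark the pooled value. Nos1, Lhx6, Vcan and Mctp2 are high in cluster 13, Kit, Ndnf and Reln in cluster 3 (647, 609 and 2921 CPM), and Ntng1, Chrm2 and Car10 in cluster 17.

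Clusters 13 and 3 were found in every mouse. The first had 8, 23 and 12 members in the WT mice, 8, 17 and 28 in the GKO mice, 14 in the J20;WT mouse and 11 in the J20;GKO mouse. The second had 10, 7 and 3 members, then 6, 9 and 10, then 6 and 5. The share of Adarb2 members was 57.2 ± 8.55% in WT mice and 62.0 ± 12.3% in GKO mice (SD, n = 3 each; 2-sided exact permutation p = 0.7). It was 58.6% in the J20;WT mouse and 38.1% in the J20;GKO mouse.

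The study asks what the loss of Gsap does in the hippocampus, and the members' share of the inhibitory nuclei is a first measure of it. The share was 12.4%, 20.7% and 18.6% in the WT mice and 12.6%, 14.1% and 17.2% in the GKO mice. The ranges overlapped. The means were 17.2 ± 4.34% and 14.6 ± 2.34% (SD, n = 3 each), with a difference of −2.60 percentage points and a 2-sided exact permutation p of 0.5, where 3 mice against 3 allow no p below 0.1. Without WT 1 the difference was −5.03 points, and without WT 2 it was −0.87 points. In WT 2, WT 3, GKO 2 and GKO 3, which share the middle date, it was −4.03 points (2-sided exact permutation p = 0.333, n = 2 each). The share was 22.0% in the J20;WT mouse (95% exact binomial interval 15.2% to 30.004%) and 11.6% in the J20;GKO mouse (7.33% to 17.2%). The intervals overlap and cover counting error alone.

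No gene was called between the GKO and WT members in the planned fit. Of 8110 genes tested with edgeR on the 3 against 3 sums, 0 (0%) passed, with 192 at an unadjusted p under 0.05, and DESeq2 called 0 with 58 at that level. In edgeR without the doublet-rich clusters, 0 of 6360 genes passed, with 118 at an unadjusted p under 0.05. In the 4 WT and GKO mice of the middle date, 0 of 7946 genes passed, with 369 at an unadjusted p under 0.05. With the date as a term 5 genes passed (Gm20754, Gpc6, Inhba and Gfra1 lower, Gm45323 higher). Without the filter on low counts 13 did, and without GKO 1 only Gm20754 did. Gfra1 had 145, 21.9 and 12.9 CPM in the WT mice and 24.5, 11.1 and 3.47 CPM in the GKO mice, with overlapping values. A single nucleus held 53 of its 92 UMIs in WT 1. Of the neurogliaform list and Gsap, 18 genes in all, 16 were tested. Their log2 fold changes lay between −0.57 and 0.52 with a smallest unadjusted edgeR p of 0.136. Lamp5, Gad1 and Gad2 are among the 16. The rule required UMIs of these genes, so their levels in members are no free measure of genotype. WT and GKO values overlapped in all 18. The share with overlap over all genes tested was not taken, so this count does not set the list apart. Gsap itself had 15 UMIs in the WT and 19 in the GKO members, too few for the test.

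The defining genes showed the spread among the mice. Lamp5, which the rule used, had 206, 290.5 and 254 CPM in the WT mice and 152, 289 and 311 CPM in the GKO mice. Hapln1 had 162, 308 and 270.2 CPM against 166, 269 and 463 CPM. Npy had 354, 336 and 338 CPM against 36.8, 413 and 249.9 CPM, and 423 CPM in the J20;WT and 646 CPM in the J20;GKO mouse. The WT mice were close together in Npy and the GKO mice were not, with GKO 1 far below the other mice.

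The 4 lower and the 4 higher genes with the smallest unadjusted p are given as values. Gm20754, a gene without an assigned function, had 142, 114 and 135 CPM in the WT mice and 56.0, 46.6 and 29.5 CPM in the GKO mice (log2 fold change −1.52 ± 0.27, edgeR adjusted p = 0.255). It also had 197.5 CPM in the J20;WT mouse and 13.6 CPM in the J20;GKO mouse. Gpc6, a glypican that helps synapses form, had 121, 139 and 77.2 CPM against 47.3, 28.9 and 45.1 CPM (−1.45 ± 0.28, edgeR adjusted p = 0.31). In both genes the GKO mice lay below every WT mouse. Neither passed in the planned fit, and with the date as a term the edgeR adjusted p was 0.0106 for Gm20754 and 0.0291 for Gpc6. Single nuclei held 56 of the 89 Gpc6 UMIs of WT 2 and 19 of the 24 of WT 3. Snrnp40 had 249, 122 and 86.9 CPM against 33.3, 53.3 and 67.7 CPM, but 107 of the 158 UMIs of WT 1 and 48 of the 78 of WT 2 came from a single nucleus in each mouse. Inhba, a subunit of activin, had 70.8, 23.4 and 22.5 CPM against 5.25, 2.22 and 8.68 CPM, but 39 of its 67 WT UMIs came from a single nucleus of WT 1.

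In the other direction Gm45323 had 81.8, 89.0 and 67.6 CPM in the WT mice and 138, 178 and 198 CPM in the GKO mice (1.11 ± 0.22, edgeR adjusted p = 0.31, or 0.0291 with the date as a term), and 95.9 CPM in the J20;WT mouse against 255 CPM in the J20;GKO mouse. Cntn6, an immunoglobulin-family adhesion molecule, had 55.1, 68.7 and 70.8 CPM against 98.0, 91.0 and 141 CPM. Gm45341 and Stk32b were also higher in each GKO mouse than in each WT mouse. Single nuclei held 33 of the 80 Gm45323 UMIs of GKO 2 and 19 of the 79 of GKO 1. They also held 16 of the 38 Gm45341 UMIs of GKO 1 and 11 of the 20 Stk32b UMIs of GKO 2. Members with a Gm45323 UMI numbered 14, 19 and 9 in the WT mice and 13, 15 and 28 in the GKO mice. Since these genes were listed for their small p values, their separation is no further evidence.

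**Figure D5:**
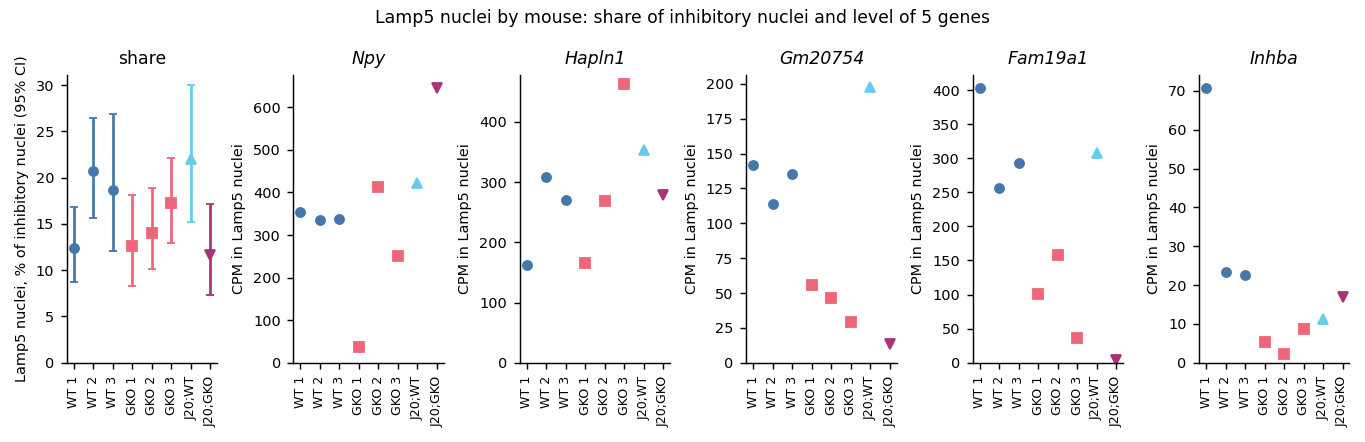
Share of members among inhibitory nuclei in percent with 95% exact binomial intervals, and CPM in members of Npy, Hapln1, Gm20754, Fam19a1 and Inhba (y axes), for each of the 8 mice (x axis). Shares overlap between 3 WT mice (12.4% to 20.7%) and 3 GKO mice (12.6% to 17.2%), and Gm20754 lies at 114 to 142 CPM in WT and 29.5 to 56.0 CPM in GKO mice.

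With 1 mouse each, the J20;WT and J20;GKO members have no replicate check. The pair also differs in date and in Xist and Y-linked genes, as given above, so these cannot be told apart from genotype. Over the 2613 genes that reached 50 UMIs in these mice, the log2 ratios of J20;GKO to J20;WT had a median of −0.04, with 90% of them between −0.90 and 0.76. The highest were Xist, with 0 UMIs against 688, the serotonin receptor gene Htr1f, with 45.1 CPM (exact Poisson interval 25.8 to 73.3) against 350.4 CPM (286 to 425), and the homeobox gene Meis2. Htr1f had 119.6, 82.8 and 106 CPM in the WT mice and 103, 122 and 81.6 CPM in the GKO mice. In the J20;GKO mouse 46 of its 103 UMIs came from 1 nucleus. Meis2 had 25.4 CPM in J20;WT and 149.7 CPM in J20;GKO, where its 44 UMIs came from 2 nuclei, 30 of them from 1. Meis2 ranged from 41.8 to 322 CPM over the WT and GKO mice. The lowest were the Y-linked Eif2s3y, the choroid plexus gene Ttr and Fam19a1. Fam19a1, which encodes a chemokine-like protein, had 109 UMIs in J20;WT members, 71 of them in 1 nucleus, and 1 UMI in J20;GKO members.

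Fam19a1 was also low in the GKO members, with 403, 256 and 293 CPM in the WT mice and 102, 158 and 36.4 CPM in the GKO mice. The log2 fold change was −1.68 ± 0.44 with an unadjusted p of 0.00491 and an edgeR adjusted p of 0.999. Members with a UMI numbered 16, 15 and 10 in the WT mice and 9, 14 and 8 in the GKO mice. A single nucleus held 94 of the 256 UMIs of WT 1, 78 of the 164 of WT 2 and 39 of the 91 of WT 3. In the GKO mice it was 31 of 58, 27 of 71 and 8 of 21, so the levels rest on few nuclei. In the other inhibitory nuclei the gene did not separate the genotypes, with 293, 338 and 97.5 CPM against 498, 108 and 134 CPM. Fam19a1 was also among the leading genes of a cluster with Slc17a7 and Ntng2 in the coarser clustering. Cluster 5, which these 2 genes lead in the finer one, held 7, 5 and 4 members of the WT mice, 1, 5 and 3 of the GKO mice, 6 of J20;WT and 0 of J20;GKO, and its part in the Fam19a1 values was not tested. Restricted to nuclei with at least 3 Lamp5 UMIs the gene was called (log2 fold change −2.18, edgeR adjusted p = 0.0429).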

How the data were processed

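Hippocampal nuclei of 8 mice were profiled by droplet single-nucleus RNA sequencing, 1 library a mouse. The authors aligned and counted reads with Cell Ranger (3.0.2 per the file headers) against mm10, and the deposited values are raw UMI counts per gene and nucleus. Their processing notes also name Seurat 3.0 and R 3.6.2.

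Nuclei with at most 5% mitochondrial UMIs and 200 to 7500 genes were kept. UMIs were summed per mouse and class where a class had at least 5 nuclei (3 for the subsets). edgeR 4.0.16 (TMM scaling, filterByExpr, robust quasi-likelihood fit, R 4.3.3) was fitted on the whole table that passed the filter, without the genes of the rule in comparisons of classes and also without Adarb2 and Lhx6 between the subsets they define. The genotype comparison kept all genes. The mouse was a term in comparisons within mice and not in GKO against WT. Shares were tested by 2-sided exact permutation in scipy 1.17.1. Clusters (Leiden, 20 components, resolution 1) and Scrublet doublet calls were made in scanpy 1.11.5 under python 3.11.15. Called doublets stayed in the main fit. Where a class held 1 to 3 UMIs of a gene, the ratio and its exact 95% counting interval replace the fitted fold. Intervals and limits on counts of 0 (3 counts) cover counting error only. The main fits were also tested on simulated counts built from their own fitted levels and dispersions, with results not reported here.

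The members and gene lists were chosen with earlier results of these data known. Named genes were those of the rule, the markers, the identity, lineage and class lists, up to 4 called genes of each other list by size, and up to 8 of the largest called changes in each direction with at least 50 CPM and 1 direction in every mouse. Where no gene passed, the 4 smallest unadjusted p values in each direction were used, and for the J20 pair the 3 largest ratios each way. Alternatives were DESeq2 1.42.0, other size factors, no filter on low counts, other Lamp5 limits, a depth range, doublets or doublet-rich clusters left out, each mouse left out, a replicate block and a date term. Results for some genes of the lists are not reported here.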

Additional observations from a re-analysis of the deposited data

Results flagged for a closer look

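For 2 genes the J20 pair moved the opposite way from the WT and GKO mice. Cntn6 was higher in the members of every GKO mouse than in those of every WT mouse, but its level in J20;GKO minus that in J20;WT was −39.27 CPM. Inhba was lower in every GKO mouse than in every WT mouse, but the same difference in the J20 pair was 5.724 CPM, from 5 UMIs against 4. Both genes had been picked for small unadjusted p values, the pair has 1 mouse a group, and the difference between the contrasts was not tested.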

How the results depend on the processing

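The comparisons of members with other inhibitory, Vip and Sst nuclei gave 1448 to 1599, 861 to 961 and 1382 to 1603 called genes with 1 mouse left out. DESeq2 called 1318, 811 and 1051 genes. Without the filter on low counts the Vip comparison gave 1463 calls (871 higher and 592 lower), with a median log2 change of 0.15 over all genes, and the comparison with other inhibitory nuclei gave 2199 (771 higher and 1428 lower), with a median of −0.14. The subsets gave 109 calls without the filter (median 0.29), 101 without doublet-rich clusters, a fit that also lost 1 of the 4 mice, and 36 to 47 with 1 mouse left out, 36 without J20;WT. Over the alternatives, values of named genes lost the call 19 times against other inhibitory nuclei (1348 did not), 41 times against Vip nuclei (1144 did not), 38 times against Sst nuclei (1215 did not) and 45 times between the subsets (200 did not).

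GKO against WT gave 13 calls without the filter, 1 with at least 3 Lamp5 UMIs (Fam19a1), and 0 to 1 with 1 mouse left out, the 1 being Gm20754 without GKO 1 (edgeR adjusted p = 0.0219). A replicate block gave 5 calls (Gm20754, Gm45323, Gpc6, Inhba and Gfra1, adjusted p = 0.0130 to 0.0388) and a date term 5. Whether the replicate numbers pair the mice cannot be told from 3 mice a group. The correlations of same-numbered mice were 0.366, 0.0247 and 0.238, and GKO 2 correlated more with WT 3 (0.150). The uncalled log2 change of Lamp5 turned negative with called doublets left out (−0.003199), under the block (−0.01689) and with the date term (−0.01872), and it ran from −0.1623 to 0.2409 with 1 mouse left out, negative without WT 1 (−0.08158), GKO 2 (−0.07205) or GKO 3. That of Hapln1 ran from −0.1465 to 0.5676. Since the rule required Lamp5 UMIs in every member, the Lamp5 change is no free measure of genotype. The difference in share ran from −5.034 to −0.8709 points, and as a share of all nuclei it was 0.01255 points. The causes were not tested. With 3 mice a group and 22 to 48 members each, genes of few UMIs are poorly measured.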
